A study of Mus musculus with 12 samples.

Results

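The genes described here are 34 of the endoplasmic reticulum (ER): chaperones and their cochaperones, enzymes of oxidative folding, subunits of the protein-conducting channel, components of ER-associated degradation (ERAD) and sensors of the unfolded protein response. They were taken by gene symbol, current or former, from the 19937 genes that the array annotation names, and each gene was represented by its probe set with the highest mean over the 12 arrays. All 34 were named, with Ero1a and Ufd1 listed under the former symbols Ero1l and Ufd1l, and all 34 passed the filter on low values that left 13180 genes for testing. Derl3 passed it narrowly, with a mean log2 value of 6.04 against a limit of 6.0. Only Sec61b, with 3 probe sets, and Pdia4, with 2, had more than a single probe set.

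All RNA came from clone #483, leukaemic T cells (T-ALL) from the mouse strain C57BL6, so every group rests on a single clone. 4EGI-1, which keeps the cap-binding protein eIF4E from the scaffold eIF4G, was given at 100 µM for 2 h, or the cells served as controls, which the sample labels call untreated and the protocol describes as given DMSO. Polysomal RNA, pooled from the polysome fractions of a sucrose gradient after lysis in cycloheximide, which holds ribosomes on mRNA, and cytoplasmic RNA, named total in the sample titles and extracted from the cells with Trizol, were each profiled on 3 arrays per treatment. The groups are therefore polysomal 4EGI-1, polysomal untreated, cytoplasmic 4EGI-1 and cytoplasmic untreated, each of 3 arrays. The series' design text calls the replicates biological, and nothing further says how separate the cultures were, so the p-values reflect array-to-array spread, which may be technical.

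Proteins that enter the ER fold there with the help of the chaperone BiP (Hspa5), the glycoprotein-binding lectins calnexin and calreticulin, and disulfide isomerases. Those that fail are drawn back through the membrane, tagged with ubiquitin by the HRD1 ligase (Syvn1) and pulled into the cytosol by the ATPase p97 (Vcp) for degradation. The sensors IRE1 (Ern1), ATF6 and PERK (Eif2ak3) report an excess of unfolded protein. ATF6 and the factor made from the spliced Xbp1 mRNA act on promoters that hold an ER stress element, whereas PERK phosphorylates the initiation factor eIF2 and acts through ATF4.

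The arrays were close to one another within each group. Correlations between arrays of a group lay between 0.996 and 0.997 in polysomal RNA and between 0.985 and 0.995 in cytoplasmic RNA, and the median gene's standard deviation (SD) was 0.0761 and 0.0745 in the polysomal 4EGI-1 and untreated groups, against 0.121 and 0.133 in the cytoplasmic 4EGI-1 and untreated groups. No arrays had identical values. Of 10 T cell and T-ALL markers, 8 were named, all 8 were above the filter on low values, and their mean log2 value lay between 10.54 and 10.69 on every array. With 4EGI-1, 3 of these 8 passed the test in polysomal RNA and 1 in cytoplasmic RNA, against 25.2% and 17.8% of all genes tested. The 7 named B cell and plasma cell markers averaged between 5.36 and 5.60 on every array, and none of the 3 of them above the filter passed in either fraction. Jchain, a plasma cell marker below the filter and so not tested, averaged 5.29 in polysomal 4EGI-1 against 4.21 in polysomal untreated arrays, and 4.50 in cytoplasmic 4EGI-1 against 3.96 in cytoplasmic untreated arrays. Of the myeloid, the erythroid and the fibroblast and epithelial markers 1 each passed in cytoplasmic RNA and none in polysomal RNA. The part of these other markers in the results was not tested. Values are on the log2 scale, the array medians lay between 6.4 and 6.56, and nothing in the values measures the total amount of RNA on polysomes. In RNA of a cell population, fewer cells with a transcript and fewer copies per cell cannot be told apart.

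The ER stress element, 2 short motifs a fixed distance apart, was searched for in the RefSeq promoter windows of assembly GRCm38.p6, which run from 250 bases before to 50 bases after a gene's start. Such a window was found for 29 of the 34 genes, but not for Hyou1, Manf, Sec61a1, Derl1 and Atf6. The element, CCAAT and CCACG 9 bases apart on either strand, was present in 9 of these 29 genes, or 31.0%, against 0.137% of the 27025 genes with a window and 0.119% of all 32851 windows. The 9 genes were Hspa5, Hsp90b1, Dnajc3, Creld2, Calr, Canx, Pdia6, Syvn1 and Derl3. The element was picked as one already tied to ER stress, so these shares are no independent result. The sites of 8 of them follow, because these include Hspa5, Hsp90b1 and Canx, chaperones that did not pass the test below, and the 5 genes of this kind that fell. That of Derl3, the gene nearest the filter on low values, is left out. Each line runs 5′ to 3′ on the strand of the gene, with the 2 motifs in capitals and 20 bases on either side.
Hspa5, chr2:34772005-34772063, plus strand: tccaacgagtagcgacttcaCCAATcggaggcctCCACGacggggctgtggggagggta
Hsp90b1, nearer site, chr10:86705513-86705571, minus strand: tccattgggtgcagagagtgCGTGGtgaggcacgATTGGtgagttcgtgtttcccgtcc
Hsp90b1, farther site, chr10:86705618-86705676, minus strand: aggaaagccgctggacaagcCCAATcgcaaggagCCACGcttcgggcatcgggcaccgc
Dnajc3, chr14:118937807-118937865, plus strand: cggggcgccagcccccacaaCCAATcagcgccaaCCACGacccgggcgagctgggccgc
Creld2, chr15:88819500-88819558, plus strand: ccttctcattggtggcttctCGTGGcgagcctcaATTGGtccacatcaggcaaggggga
Calr, chr8:84847055-84847113, minus strand: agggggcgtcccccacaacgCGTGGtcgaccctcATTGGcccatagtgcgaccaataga
Canx, chr11:50325780-50325838, minus strand: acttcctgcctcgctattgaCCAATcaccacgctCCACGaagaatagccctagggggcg
Pdia6, chr12:17266471-17266529, plus strand: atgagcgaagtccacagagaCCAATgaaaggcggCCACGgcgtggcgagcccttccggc
Syvn1, chr19:6046512-6046570, plus strand: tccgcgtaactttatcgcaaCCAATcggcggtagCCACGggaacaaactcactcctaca
The element runs in the opposite orientation, CGTGG before ATTGG, in Creld2, Calr and the nearer site of Hsp90b1.

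3 further motifs were searched for on both strands. ER stress element II, which joins ATTGG and CCACG with a gap of 1 base and so shares CCACG with the first element, was present in Herpud1 and Dnajb11, or 6.9% of the 29 genes against 0.0444% of all genes. The core TGACGTGG of the unfolded protein response element, whose CGTGG is the reverse complement of CCACG, was present in Vcp, or 3.45% of the 29 genes against 0.714% of all genes. The composite element TGATGCAA, bound by ATF4 with C/EBP proteins, was present in Herpud1, or 3.45% of the 29 genes against 1.03% of all genes. The windows of Herpud1 and Vcp are shown because these genes gained most in polysomal RNA. In Herpud1 the capitals mark the composite element, read here as TTGCATCA, and element II downstream of it, and in Vcp they mark the core.
Herpud1, chr8:94386297-94386407, plus strand: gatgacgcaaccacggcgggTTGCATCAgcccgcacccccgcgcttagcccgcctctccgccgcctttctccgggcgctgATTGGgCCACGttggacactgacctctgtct
Vcp, chr4:43000594-43000641, minus strand: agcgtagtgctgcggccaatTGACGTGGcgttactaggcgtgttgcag

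The first comparison asked which of these mRNAs differed between 4EGI-1 and untreated cells, in polysomal and in cytoplasmic RNA. ERAD components and the sensor Atf6 made up most of the genes that rose, while Hspa5 and Hsp90b1, the main lumenal chaperones, did not pass the test in either fraction. ERAD was also the largest role, with 11 of the 34 genes. Of 23 other ERAD genes, 2 rose and 1 fell in polysomal RNA, and 5 rose and none fell in cytoplasmic RNA. In polysomal RNA 5 of the 34 genes rose and 4 fell at a Benjamini-Hochberg adjusted p under 0.05 in limma, against 13.0% and 12.1% of all genes tested that rose and fell. The 9 genes make up 26.5% of the 34, close to the 25.2% of all genes that passed, and the median log2 change was -0.02 for the 34 genes and -0.03 for all genes. In cytoplasmic RNA 6 rose and 5 fell, against 10.1% and 7.79% of all genes. The 11 genes make up 32.4% of the 34, against 17.8% of all genes, with medians of -0.06 for the 34 genes and -0.03 for all genes. With the 6 cytoplasmic arrays fitted alone, 5 of the 34 rose and 1 fell. In that fit 731 of the 13180 genes tested rose and 369 fell.

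Herpud1, Atf6 and Edem1 rose in both fractions, Sec61b fell in both, and no gene passed in both with opposite directions. A further 5 genes passed in polysomal RNA alone and 7 in cytoplasmic RNA alone. Groups whose arrays did not overlap were more frequent. In polysomal RNA all 4EGI-1 arrays lay above all untreated arrays in 9 of the 34 genes and below them in 10, against 21.6% and 27.1% of all genes, and in cytoplasmic RNA in 6 and 8, against 13.8% and 12.8%. Counting the difference between the fractions as well, 18 of the 34 genes passed in none of the treatment comparisons. By role, the genes that rose in polysomal RNA were 3 of 11 ERAD components, 1 of 9 lumenal chaperones and cochaperones and 1 of 3 sensors and transcription factors. In cytoplasmic RNA they were 4 of 11 ERAD components, 1 of 6 genes of oxidative folding and 1 of 3 sensors and transcription factors. Of all genes tested, 13.0% rose in polysomal and 10.1% in cytoplasmic RNA, and roles this small shift with a single call.

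**Figure D1:**
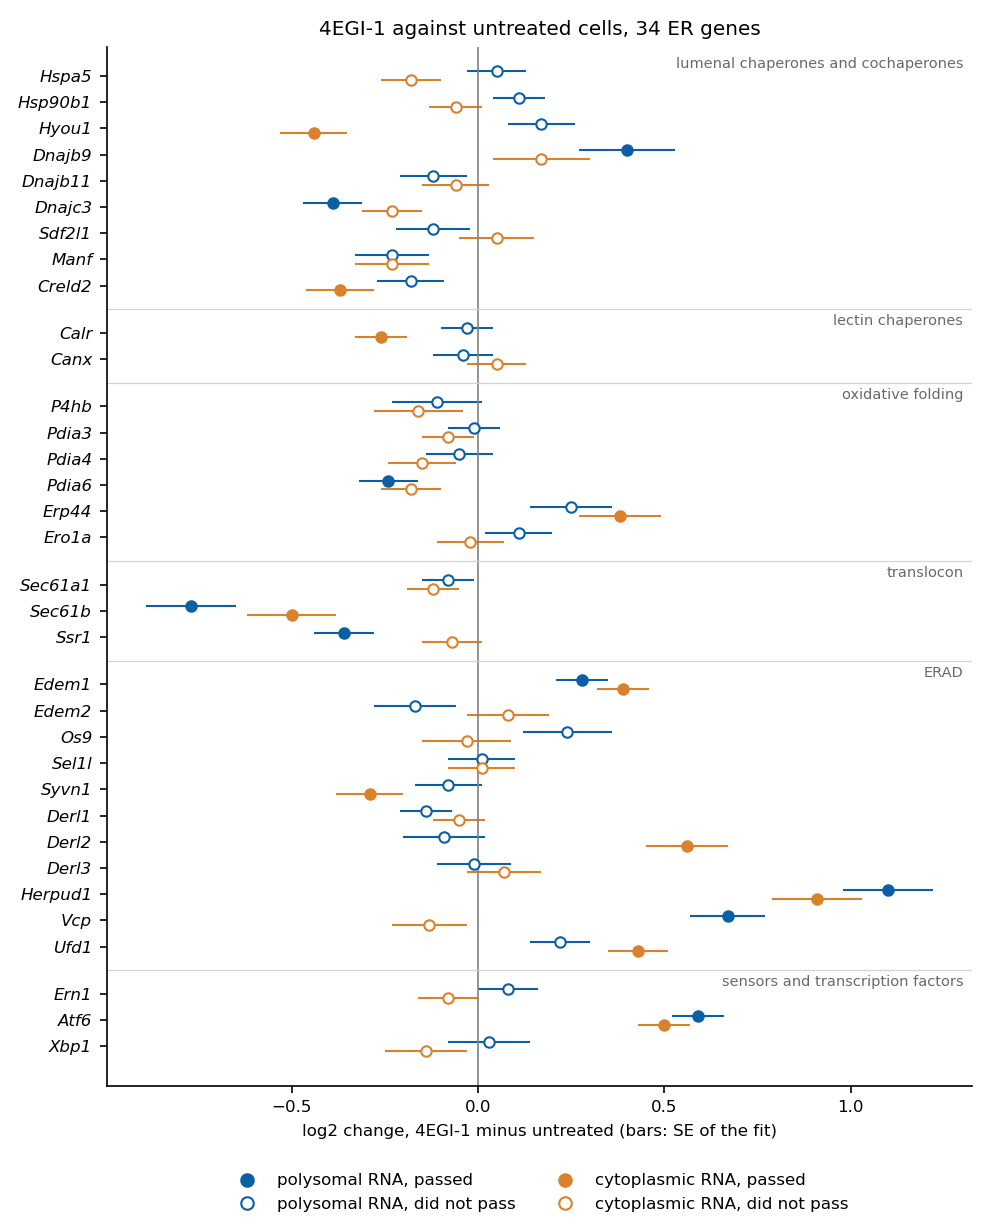
Log2 change with 4EGI-1 (horizontal axis, 4EGI-1 minus untreated, bars: standard error of the fit) of the 34 ER genes in polysomal and cytoplasmic RNA, grouped by role. Filled points passed the test. Herpud1 lies farthest to the right in both fractions, at 1.10 and 0.91, and Sec61b farthest to the left, at -0.77 and -0.50.

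Herpud1 encodes an ER membrane protein with a ubiquitin-like domain that organises the HRD1 ligase complex. Its log2 values were 9.90, 9.86 and 9.97 in polysomal RNA of 4EGI-1 cells, against 8.88, 8.74 and 8.80 in that of untreated cells. In cytoplasmic RNA they were 9.68, 9.56 and 10.06 in 4EGI-1 cells, against 8.83, 8.70 and 9.02 in untreated cells. Every 4EGI-1 array lay above every untreated array in both fractions. The change was 1.10 ± 0.12 (standard error, SE, of the limma fit, 3 arrays per group, adjusted p = 7e-06) in polysomal RNA, or 2.15-fold, and 0.91 ± 0.12 (adjusted p = 7.58e-05) in cytoplasmic RNA, or 1.88-fold.

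Edem1 encodes a lectin that takes misfolded glycoproteins out of the folding cycle. Its log2 values were 11.69, 11.64 and 11.63 in polysomal RNA of 4EGI-1 cells, against 11.41, 11.35 and 11.36 in that of untreated cells. The cytoplasmic values were 11.73, 11.70 and 11.70 in 4EGI-1 cells, against 11.36, 11.38 and 11.23 in untreated cells. The groups did not overlap, with changes of 0.28 ± 0.07 (adjusted p = 0.00909) in polysomal and 0.39 ± 0.07 (adjusted p = 0.00141) in cytoplasmic RNA. Edem2, a mannosidase of the same family, changed by -0.17 ± 0.11 (adjusted p = 0.31) and 0.08 ± 0.11 (adjusted p = 0.659) in the same fractions and did not pass.

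Vcp and Ufd1 encode the p97 ATPase and a cofactor that brings it ubiquitinated substrates. Vcp had 11.41, 11.26 and 11.40 in polysomal RNA of 4EGI-1 cells, against 10.61, 10.64 and 10.80 in that of untreated cells. All 4EGI-1 arrays were above all untreated ones, by 0.67 ± 0.10 (adjusted p = 0.000197), or 1.6-fold. The cytoplasmic values of Vcp overlapped, with 11.48, 11.42 and 11.77 in 4EGI-1 cells against 11.79, 11.55 and 11.74 in untreated cells, a change of -0.13 ± 0.10 (adjusted p = 0.414). Ufd1 passed in the other fraction. It had 11.30, 11.25 and 11.20 in cytoplasmic RNA of 4EGI-1 cells, against 10.69, 10.89 and 10.88 in that of untreated cells, and rose by 0.43 ± 0.08 (adjusted p = 0.00217). In polysomal RNA, Ufd1 had 11.64, 11.55 and 11.59 in 4EGI-1 cells, against 11.50, 11.27 and 11.35 in untreated cells. These arrays did not overlap either, but the change of 0.22 ± 0.08 did not pass (adjusted p = 0.0676). It passed without polysomal untreated array 1 (0.28, adjusted p = 0.0405), with an intensity trend and robust prior (0.0307), with a variance for each fraction (0.0143) and with the 6 polysomal arrays alone (0.0278).

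The derlins are membrane proteins of the retrotranslocation path. Derl2 had 8.38, 8.45 and 8.37 in cytoplasmic RNA of 4EGI-1 cells, against 7.64, 7.96 and 7.91 in that of untreated cells. It rose by 0.56 ± 0.11 (adjusted p = 0.00178), or 1.48-fold, without overlap. The polysomal values of Derl2, 8.59, 8.28 and 8.21 in 4EGI-1 cells against 8.49, 8.48 and 8.36 in untreated cells, overlapped, with a change of -0.09 ± 0.11 (adjusted p = 0.626). Derl1 changed by -0.14 ± 0.07 in polysomal and -0.05 ± 0.07 in cytoplasmic RNA, Derl3 by -0.01 ± 0.10 and 0.07 ± 0.10, and neither passed.

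Syvn1, the ligase itself, was the ERAD component that fell. Its cytoplasmic values were 8.04, 8.06 and 8.06 in 4EGI-1 cells, against 8.33, 8.18 and 8.54 in untreated cells. The groups did not overlap, at -0.29 ± 0.09 (adjusted p = 0.0276), but the call was lost without any of 4 arrays: cytoplasmic untreated array 1 (adjusted p = 0.0581) or 3 (0.105) and cytoplasmic 4EGI-1 array 1 (0.0862) or 2 (0.0626). It was also lost without the filter on low values (adjusted p = 0.0529), with a variance for each fraction (0.0811) and in a fit of the 6 cytoplasmic arrays alone (0.139). Sel1l, the adaptor of the ligase, changed by 0.01 ± 0.09 in both fractions, and the lectin Os9 by 0.24 ± 0.12 (adjusted p = 0.166, or 0.0454 with a variance for each fraction) in polysomal and -0.03 ± 0.12 (adjusted p = 0.881) in cytoplasmic RNA.

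Of the sensors, Atf6 rose in both fractions. It had 9.14, 9.15 and 9.18 in polysomal RNA of 4EGI-1 cells, against 8.67, 8.55 and 8.49 in that of untreated cells. In cytoplasmic RNA it had 8.99, 9.0 and 8.95 in 4EGI-1 cells, against 8.47, 8.51 and 8.46 in untreated cells. The 4EGI-1 arrays were above the untreated ones throughout, by 0.59 ± 0.07 (adjusted p = 2.81e-05, 1.5-fold) in polysomal and 0.50 ± 0.07 (adjusted p = 0.000211, 1.41-fold) in cytoplasmic RNA.

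Ern1 encodes IRE1, the kinase and nuclease that splices Xbp1 mRNA. Its polysomal values were 7.02, 6.78 and 6.81 in 4EGI-1 cells, against 6.78, 6.83 and 6.76 in untreated cells, and they overlapped. The changes of Ern1 were 0.08 ± 0.08 in polysomal and -0.08 ± 0.08 in cytoplasmic RNA, with an adjusted p of 0.554 in each. Xbp1 had 8.00, 8.07 and 8.04 in polysomal RNA of 4EGI-1 cells, against 8.06, 8.01 and 7.96 in that of untreated cells, a change of 0.03 ± 0.11 (adjusted p = 0.911). In cytoplasmic RNA Xbp1 had 8.11, 8.01 and 8.31 in 4EGI-1 cells, against 8.35, 8.01 and 8.52 in untreated cells, again with overlap and a change of -0.14 ± 0.11 (adjusted p = 0.424). Without cytoplasmic untreated array 2 the value was -0.29 and passed (adjusted p = 0.045). The probe set does not separate spliced from unspliced Xbp1, so splicing was not measured.

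**Figure D2:**
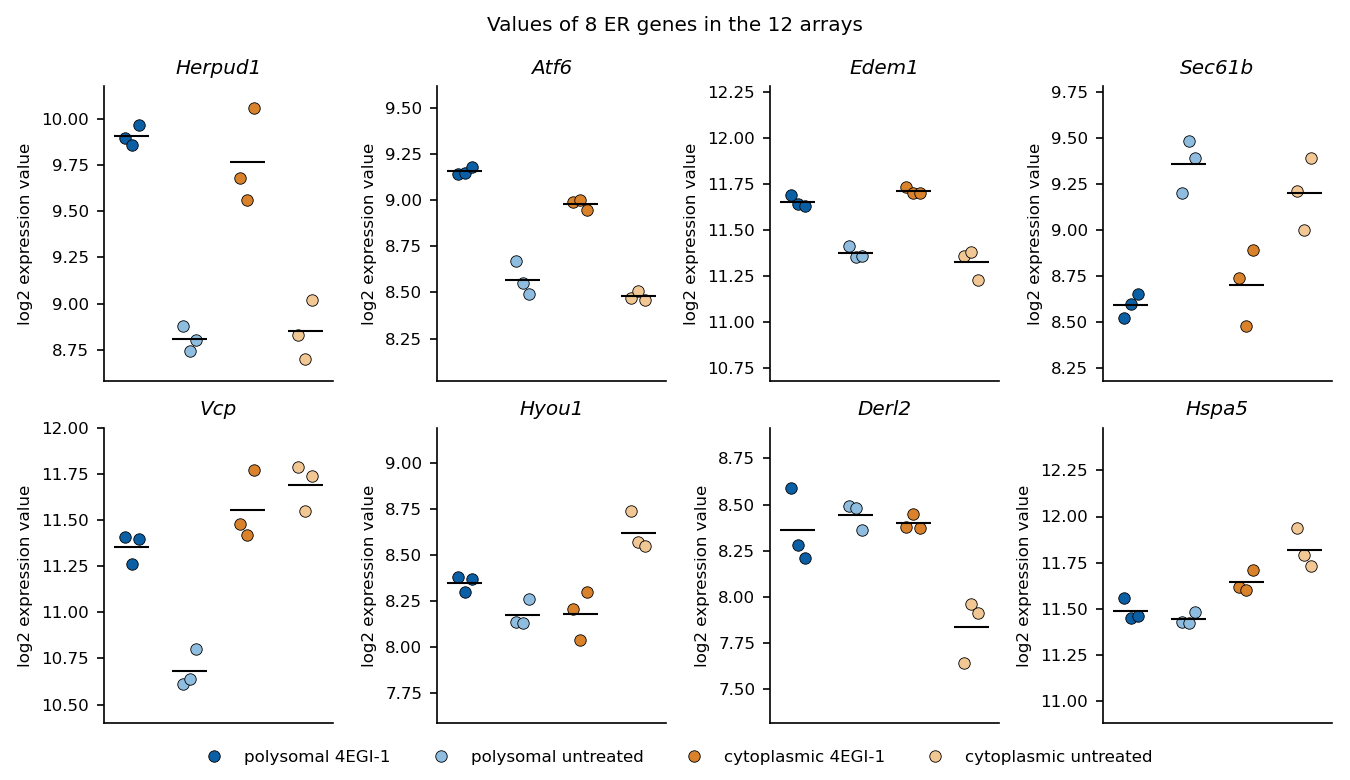
Log2 values (vertical axis) of 8 ER genes on each of the 12 arrays, with the 4 groups set apart by colour and a line at each group's mean. Herpud1, Atf6 and Edem1 are higher and Sec61b is lower in 4EGI-1 cells in both fractions. Vcp separates by treatment in polysomal RNA and Derl2 in cytoplasmic RNA, and Hspa5 overlaps in polysomal RNA. Hyou1 is lower in cytoplasmic RNA of 4EGI-1 cells and its points lie higher in polysomal RNA, where the change did not pass.

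Hspa5 encodes BiP, the central HSP70 chaperone of the ER and the usual readout of the unfolded protein response. Its log2 values were 11.56, 11.45 and 11.46 in polysomal RNA of 4EGI-1 cells, against 11.43, 11.42 and 11.48 in that of untreated cells. They overlapped, at 0.05 ± 0.08 (adjusted p = 0.724). In cytoplasmic RNA Hspa5 had 11.62, 11.60 and 11.71 in 4EGI-1 cells, against 11.94, 11.79 and 11.73 in untreated cells. Every 4EGI-1 array was the lower there, but the change of -0.18 ± 0.08 did not pass (adjusted p = 0.129). Hsp90b1, the ER member of the HSP90 family, changed by 0.11 ± 0.07 (adjusted p = 0.307) in polysomal and -0.06 ± 0.07 (adjusted p = 0.607) in cytoplasmic RNA.

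The partners of BiP moved in both directions. Hyou1, its nucleotide exchange factor, had 8.21, 8.04 and 8.30 in cytoplasmic RNA of 4EGI-1 cells, against 8.74, 8.57 and 8.55 in that of untreated cells. It fell by 0.44 on the log2 scale without overlap, and the fitted change was -0.44 ± 0.09 (adjusted p = 0.00253). The polysomal arrays of Hyou1 were also apart but in the other direction, with 8.38, 8.30 and 8.37 in 4EGI-1 cells against 8.14, 8.13 and 8.26 in untreated cells, at 0.17 ± 0.09 (adjusted p = 0.174, or 0.0445 with a variance for each fraction).

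Dnajc3, a J-domain cochaperone also known as P58IPK, had 10.88, 10.86 and 10.82 in polysomal RNA of 4EGI-1 cells, against 11.26, 11.26 and 11.21 in that of untreated cells. These groups were well apart, at -0.39 ± 0.08 (adjusted p = 0.00149). In cytoplasmic RNA Dnajc3 had 10.61, 10.67 and 10.61 in 4EGI-1 cells, against 10.82, 11.00 and 10.75 in untreated cells, a change of -0.23 ± 0.08 that did not pass (adjusted p = 0.0538). It passed with the replicate block (0.0422), under median centring (0.0355), with the stricter filter (0.0444), with an intensity trend and robust prior (0.026) and without cytoplasmic untreated array 3 (-0.28, 0.0284).

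Dnajb9, a J-domain protein that brings BiP to IRE1, had 7.69, 7.24 and 7.29 in polysomal RNA of 4EGI-1 cells, against 6.92, 6.93 and 7.19 in that of untreated cells. The change was 0.40 ± 0.13 (adjusted p = 0.0395) with the first 4EGI-1 array the highest, and without that array it was 0.25 and did not pass (adjusted p = 0.209). The call was also lost without polysomal untreated array 1 (adjusted p = 0.139) or 2 (0.136) or polysomal 4EGI-1 array 3 (0.0506), and under renewed quantile normalization (0.0507), median centring (0.0691) and no filter (0.0686). Creld2, a lumenal protein with isomerase-like activity, had 9.39, 9.08 and 9.25 in cytoplasmic RNA of 4EGI-1 cells, against 9.50, 9.63 and 9.70 in that of untreated cells. The groups did not overlap, at -0.37 ± 0.09 (adjusted p = 0.0108), but without cytoplasmic 4EGI-1 array 2, the lowest, the change was -0.29 (adjusted p = 0.0556), and the 6 cytoplasmic arrays alone gave an adjusted p of 0.0728. Dnajb11, Sdf2l1 and Manf, which also assist BiP, changed by between -0.23 and 0.05 and passed in neither fraction. Manf passed in cytoplasmic RNA without cytoplasmic 4EGI-1 array 1 (-0.32, adjusted p = 0.0458), and in polysomal RNA with a variance for each fraction (0.0182) and with the 6 polysomal arrays alone (0.0214).

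Calreticulin and calnexin hold glycoproteins in the folding cycle. Calr had 10.75, 10.77 and 10.67 in cytoplasmic RNA of 4EGI-1 cells, against 10.96, 11.01 and 11.01 in that of untreated cells. The arrays were apart, at -0.26 ± 0.07 (adjusted p = 0.018), and the call was lost with a variance for each fraction (adjusted p = 0.0843) and with the 6 cytoplasmic arrays alone (0.109). Calr overlapped in polysomal RNA, with 11.05, 11.09 and 11.05 in 4EGI-1 cells against 11.13, 11.01 and 11.15 in untreated cells (adjusted p = 0.813). Canx changed by -0.04 ± 0.08 in polysomal and 0.05 ± 0.08 in cytoplasmic RNA and did not pass.

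Among the 6 genes of oxidative folding, Erp44 and Pdia6 passed, each in a single fraction and with calls that rested on few arrays. Erp44, which retrieves folding enzymes and their clients from the early Golgi, had 8.98, 8.87 and 8.77 in cytoplasmic RNA of 4EGI-1 cells, against 8.41, 8.71 and 8.35 in that of untreated cells. The groups were narrowly apart, at 0.38 ± 0.11 (adjusted p = 0.0251). The call was lost without cytoplasmic untreated array 1 (adjusted p = 0.0909) or 3 (0.098) or cytoplasmic 4EGI-1 array 1 (0.109) or 2 (0.0606), with a variance for each fraction (0.0951) and with the 6 cytoplasmic arrays alone (0.0838).

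Pdia6, a disulfide isomerase, had 9.24, 9.19 and 9.25 in polysomal RNA of 4EGI-1 cells, against 9.58, 9.45 and 9.38 in that of untreated cells. All 4EGI-1 arrays were the lower, at -0.24 ± 0.08 (adjusted p = 0.0419). The call was lost without polysomal untreated array 1 (adjusted p = 0.179) or 2 (0.0924), without polysomal 4EGI-1 array 1 (0.0892), 2 (0.127) or 3 (0.083), without cytoplasmic 4EGI-1 array 1 (0.0549), under median centring (0.0594) and without the filter (0.0773). The isomerases P4hb, Pdia3 and Pdia4 changed by between -0.16 and -0.01 and the oxidase Ero1a by 0.11 ± 0.09 in polysomal and -0.02 ± 0.09 in cytoplasmic RNA, and none passed. P4hb passed in cytoplasmic RNA without cytoplasmic 4EGI-1 array 3 (-0.31, adjusted p = 0.0465).

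Of the translocon genes, Sec61b, the beta subunit of the channel, had 8.52, 8.60 and 8.65 in polysomal RNA of 4EGI-1 cells, against 9.20, 9.48 and 9.39 in that of untreated cells. In cytoplasmic RNA it had 8.74, 8.48 and 8.89 in 4EGI-1 cells, against 9.21, 9.0 and 9.39 in untreated cells. The groups did not overlap in either fraction, and Sec61b fell by 0.77 on the log2 scale (SE 0.12, adjusted p = 0.000185) in polysomal and by 0.50 (SE 0.12, adjusted p = 0.00769) in cytoplasmic RNA.

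All 3 probe sets of Sec61b were lower in polysomal RNA of 4EGI-1 cells, with changes of -0.77, -0.46 and -0.57, while in cytoplasmic RNA they gave -0.50, 0.02 and -0.36. The cytoplasmic call of Sec61b was lost when the probe sets were averaged (-0.28, adjusted p = 0.157) and with the 6 cytoplasmic arrays alone (adjusted p = 0.0503). Ssr1, the alpha subunit of the translocon-associated protein complex, had 10.47, 10.24 and 10.31 in polysomal RNA of 4EGI-1 cells, against 10.76, 10.72 and 10.62 in that of untreated cells. It was lower on every 4EGI-1 array, at -0.36 ± 0.08 (adjusted p = 0.00499), while in cytoplasmic RNA the change of Ssr1 was -0.07 ± 0.08 (adjusted p = 0.643). Sec61a1, the channel subunit itself, changed by -0.08 ± 0.07 (adjusted p = 0.465) in polysomal and -0.12 ± 0.07 (adjusted p = 0.286) in cytoplasmic RNA.

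The second comparison asked whether the effect of 4EGI-1 differed between polysomal and cytoplasmic RNA, and tested the polysomal minus the cytoplasmic effect in the same fit. Of the 34 genes, 2 had a higher effect in polysomal RNA and 1 a lower, against 2.31% and 0.607% of all genes tested. These 3 are 8.82% of the 34, against 2.92% of all genes. The difference was 0.81 ± 0.14 (adjusted p = 0.0057) for Vcp and 0.61 ± 0.12 (adjusted p = 0.0124) for Hyou1, whose effects are given above. For Derl2 it was -0.65 ± 0.15 (adjusted p = 0.0289).

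The call of Derl2 in this comparison was lost under median centring (adjusted p = 0.0531), without the filter (0.0637) and without any of 7 arrays. These were cytoplasmic untreated array 1 (0.0793), cytoplasmic 4EGI-1 array 1 (0.0636) or 2 (0.0684), polysomal untreated array 1 (0.086) or 2 (0.0867) and polysomal 4EGI-1 array 2 (0.0768) or 3 (0.0998). Of the genes that passed in a single fraction, Dnajb9, Vcp, Dnajc3, Pdia6, Ssr1, Erp44, Derl2, Ufd1, Hyou1, Creld2, Calr and Syvn1, the effect was shown to differ between fractions only for Vcp, Hyou1 and Derl2. For Herpud1 the difference was 0.19 ± 0.16 (adjusted p = 0.699), for Atf6 0.09 ± 0.10 (adjusted p = 0.807), and for Hspa5 0.23 ± 0.11 (adjusted p = 0.385).

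The third comparison set polysomal against cytoplasmic RNA within each treatment, as a measure of how strongly an mRNA was associated with polysomes. It uses the same 12 arrays as the treatment effects and is not independent of them. In 4EGI-1 cells 4 of the 34 genes were higher in polysomal RNA and none was lower, against 9.56% and 7.15% of all genes tested, so 11.8% of the 34 passed, against 16.7% of all genes. In untreated cells 5 were higher and 4 lower, against 16.7% and 12.2% of all genes, so 26.5% of the 34 passed, against 29.0% of all genes. Polysomal arrays lay wholly above the cytoplasmic ones in 10 of the 34 genes and wholly below in 5 in 4EGI-1 cells, against 19.7% and 17.0% of all genes, and in 5 and 6 in untreated cells, against 21.5% and 19.9%. Median centring of the arrays moved the share of higher genes among all genes that passed to 83.8% in 4EGI-1 cells and 74.7% in untreated cells, against 57.2% and 57.7% with the values as deposited. In 4EGI-1 cells 9 of the 34 genes were then higher and none lower, against 2205 higher and 427 lower of the 13180 genes tested.

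Vcp had the widest gap. In 4EGI-1 cells its polysomal values of 11.41, 11.26 and 11.40 lay just below the cytoplasmic 11.48, 11.42 and 11.77, at -0.20 ± 0.10, which did not pass (adjusted p = 0.2). In untreated cells the polysomal 10.61, 10.64 and 10.80 lay well below the cytoplasmic 11.79, 11.55 and 11.74, at -1.01 ± 0.10 (adjusted p = 6.64e-06). Hyou1 stood at 0.17 ± 0.09 (adjusted p = 0.205) in 4EGI-1 cells and passed in untreated cells, at -0.44 ± 0.09 (adjusted p = 0.00135). Hspa5 stood at -0.15 ± 0.08 (adjusted p = 0.19) in 4EGI-1 cells and was lower in polysomal RNA of untreated cells, at -0.38 ± 0.08 (adjusted p = 0.00167). Syvn1 was the fourth gene lower on polysomes in untreated cells, at -0.29 ± 0.09 (adjusted p = 0.0196), a call lost under median centring (adjusted p = 0.146) and without cytoplasmic untreated array 3 (0.074) or polysomal untreated array 2 (0.0726) or 3 (0.0561).

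Ufd1 and Ero1a were higher in polysomal than in cytoplasmic RNA in both treatments. Ufd1 differed by 0.34 ± 0.08 (adjusted p = 0.0129) in 4EGI-1 cells and 0.55 ± 0.08 (adjusted p = 0.000189) in untreated cells, and Ero1a by 0.41 ± 0.09 (adjusted p = 0.00922) and 0.28 ± 0.09 (adjusted p = 0.0368). Without polysomal 4EGI-1 array 1 neither passed in 4EGI-1 cells, with adjusted p-values of 0.0601 for Ufd1 and 0.0543 for Ero1a. In untreated cells the call of Ero1a was lost without the filter (0.0684), without cytoplasmic untreated array 1 (0.0556) or 2 (0.128) and without polysomal untreated array 2 (0.113) or 3 (0.134).

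Calr and Creld2 passed in 4EGI-1 cells, at 0.33 ± 0.07 (adjusted p = 0.00644) and 0.32 ± 0.09 (adjusted p = 0.0281). Creld2 lost its call there without the filter (0.0531) and without cytoplasmic 4EGI-1 array 2 (0.108) or 3 (0.0507) or polysomal 4EGI-1 array 1 (0.0702), 2 (0.108) or 3 (0.0541). Leaving out polysomal 4EGI-1 array 1 left 1 of the 34 genes past the test in 4EGI-1 cells.

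Derl2, Dnajc3 and Pdia6 passed in untreated cells. Derl2 was higher in polysomal RNA by 0.61 ± 0.11 (adjusted p = 0.000538), Dnajc3 by 0.39 ± 0.08 (adjusted p = 0.00157) and Pdia6 by 0.27 ± 0.08 (adjusted p = 0.0237). The call of Pdia6 was lost without cytoplasmic untreated array 3 (0.0792) or polysomal untreated array 1 (0.118) or 2 (0.0548). Xbp1 did not pass as reported, at -0.28 ± 0.11 (adjusted p = 0.0791), but did with quantile normalization within each fraction (-0.27, adjusted p = 0.0494) and without cytoplasmic untreated array 2 (-0.42, adjusted p = 0.0039). In 4EGI-1 cells Atf6, at 0.18 ± 0.07 (adjusted p = 0.109), passed under median centring (0.27, adjusted p = 0.0191).

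**Figure D3:**
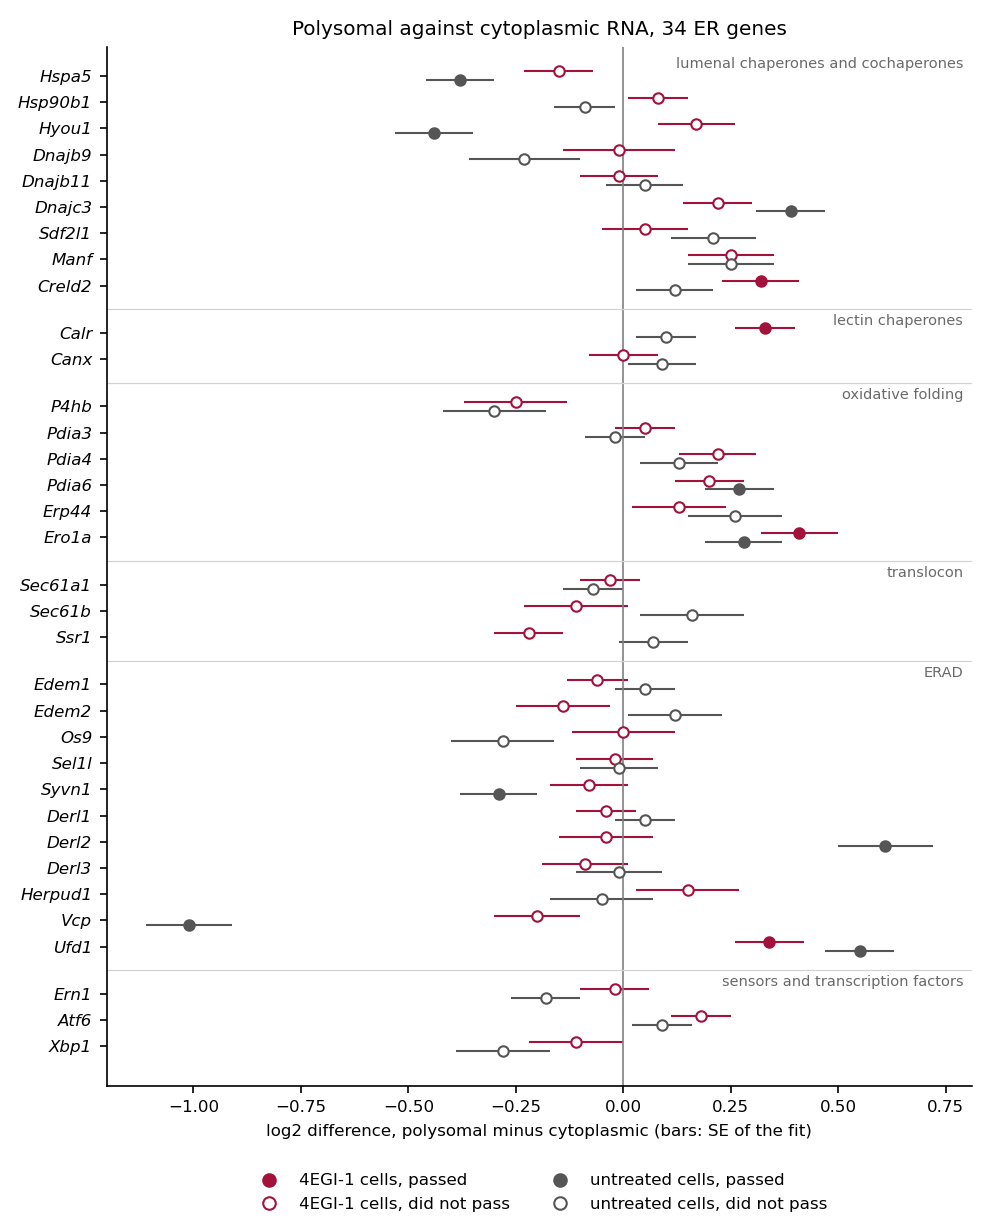
Log2 difference between polysomal and cytoplasmic RNA (horizontal axis, polysomal minus cytoplasmic, bars: standard error of the fit) of the 34 ER genes in 4EGI-1 and in untreated cells, grouped by role, with filled points for those that passed the test. Vcp stands at -0.20 in 4EGI-1 cells and is farthest to the left in untreated cells, at -1.01, while Derl2 and Ufd1 are farthest to the right in untreated cells, at 0.61 and 0.55.

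Other genes of ER function and stress signalling were taken from 4 lists, beside a list of cytosolic chaperones. The lists were drawn up by function with earlier results of these data known, so comparisons between them are descriptive. Of all genes tested, 13.0% rose and 12.1% fell in polysomal RNA, and 10.1% and 7.79% did so in cytoplasmic RNA. The list of the PERK arm and other stress transducers had the largest share of genes that passed. It includes genes for proteins outside the ER, such as Ddit3 and Chac1, and whether PERK acted on them was not tested. Of its 12 tested genes, from 14 listed, 7 rose and 1 fell in polysomal RNA (median 0.47), and 6 rose and 1 fell in cytoplasmic RNA (median 0.39). Eif2ak3, PERK itself, rose by 0.77 (adjusted p = 4.21e-05) in polysomal and 0.73 (adjusted p = 0.000131) in cytoplasmic RNA. Ddit3, which encodes the transcription factor CHOP, rose by 0.86 (adjusted p = 7.09e-06) and 0.87 (adjusted p = 1.34e-05). Ppp1r15a, the regulatory subunit of an eIF2 phosphatase, rose by 0.68 in polysomal RNA (adjusted p = 2.58e-05), and Chac1, a glutathione-degrading enzyme, by 1.34 in cytoplasmic RNA (adjusted p = 1.42e-05).

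Among other genes of translocation and N-glycosylation, 1 of 32 rose and 9 fell in polysomal RNA (median -0.12), against 13.0% and 12.1% of all genes. In cytoplasmic RNA 2 rose and 1 fell (median -0.05), against 10.1% and 7.79% of all genes. The smallest p-values in polysomal RNA belonged to Spcs1, of the signal peptidase complex, at -0.56 (adjusted p = 0.000201), Ssr4, of the translocon-associated protein complex like Ssr1, at -0.53 (adjusted p = 0.00112), and Dad1, of the oligosaccharyltransferase, at -0.48 (adjusted p = 0.00119). Spcs1 also differed between fractions, at -0.55 (adjusted p = 0.0221), a call lost under median centring (0.0531), without the filter (0.0528), without array 1 of any group (0.0567 to 0.0664), and without polysomal untreated array 2 (0.0762) or polysomal 4EGI-1 array 3 (0.0728). In cytoplasmic RNA Sec62 rose by 0.51 (adjusted p = 0.000706) and Sec61a2 by 0.49 (adjusted p = 0.022), both of the translocation channel, while Tram1, a translocon-associated membrane protein, changed by -0.26 (adjusted p = 0.0497). In polysomal RNA Tram1 fell by 0.41 (adjusted p = 0.00228). The call of Sec61a2 was lost without cytoplasmic 4EGI-1 array 1 (0.0868) or 2 (0.0897), cytoplasmic untreated array 1 (0.066) or 3 (0.0982), and with the 6 cytoplasmic arrays alone (0.109). The cytoplasmic call of Tram1 held only when the array left out was polysomal 4EGI-1 array 1, cytoplasmic 4EGI-1 array 3 or cytoplasmic untreated array 2, and its adjusted p otherwise reached 0.187, without cytoplasmic 4EGI-1 array 1. It was also lost under median centring (0.0787), without the filter (0.0891), with a variance for each fraction (0.156) and with the 6 cytoplasmic arrays alone (0.163).

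Of the other folding enzymes and glycoprotein-processing genes, 5 of 30 rose and 5 fell in polysomal RNA (median -0.03), against 13.0% and 12.1% of all genes. In cytoplasmic RNA 5 rose and 3 fell (median 0.02), against 10.1% and 7.79% of all genes. Uggt1, which marks incompletely folded glycoproteins for another round with the lectins, rose by 0.90 (adjusted p = 3.12e-06) in polysomal RNA. Ganab, the catalytic subunit of glucosidase II, rose by 0.85 there (adjusted p = 1.38e-05). Both had a higher effect in polysomal than in cytoplasmic RNA, by 0.92 (adjusted p = 0.000615) for Uggt1 and 0.74 (adjusted p = 0.00704) for Ganab. Fkbp7, an ER prolyl isomerase, rose by 0.94 (adjusted p = 0.000123) in polysomal and 0.98 (adjusted p = 0.000161) in cytoplasmic RNA. In cytoplasmic RNA the J-domain protein Dnajc1 rose by 0.46 (adjusted p = 0.00104) and Tmx2, a thioredoxin-related membrane protein, by 0.39 (adjusted p = 0.00276).

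Other ERAD genes gave 2 of 23 that rose and 1 that fell in polysomal RNA (median -0.01), against 13.0% and 12.1% of all genes. In cytoplasmic RNA 5 rose and none fell (median 0.11), against 10.1% and 7.79% of all genes. The ubiquitin ligase Rnf139 rose by 0.32 (adjusted p = 0.00874) and Faf2, a p97-recruiting membrane protein, by 0.25 (adjusted p = 0.0323) in polysomal RNA, while the ligase Rnf5 changed by -0.37 (adjusted p = 0.00298). In cytoplasmic RNA Erlin2 rose by 0.40 (adjusted p = 0.00581), its partner Erlin1 by 0.31 (adjusted p = 0.00814) and Ngly1, which strips N-glycans from retrotranslocated proteins, by 0.41 (adjusted p = 0.0118). The call of Faf2 was lost without polysomal 4EGI-1 array 1 (0.0897), 2 (0.107) or 3 (0.0512), polysomal untreated array 2 (0.142) or 3 (0.101), under median centring (0.0533) and without the filter (0.0614). That of Ngly1 was lost without cytoplasmic 4EGI-1 array 1 (0.0673) or cytoplasmic untreated array 3 (0.0527), and with the 6 cytoplasmic arrays alone both Ngly1 (0.0819) and Erlin1 (0.073) lost theirs. Of 22 cytosolic chaperones, 1 rose and 1 fell in polysomal RNA and 1 fell in cytoplasmic RNA. Hsph1, a nucleotide exchange factor of HSP70, rose by 0.53 (adjusted p = 0.000645) in polysomal RNA, while the HSP40 Dnajb1 fell by 0.81 (adjusted p = 0.00104) there and by 0.68 (adjusted p = 0.00581) in cytoplasmic RNA.

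**Figure D4:**
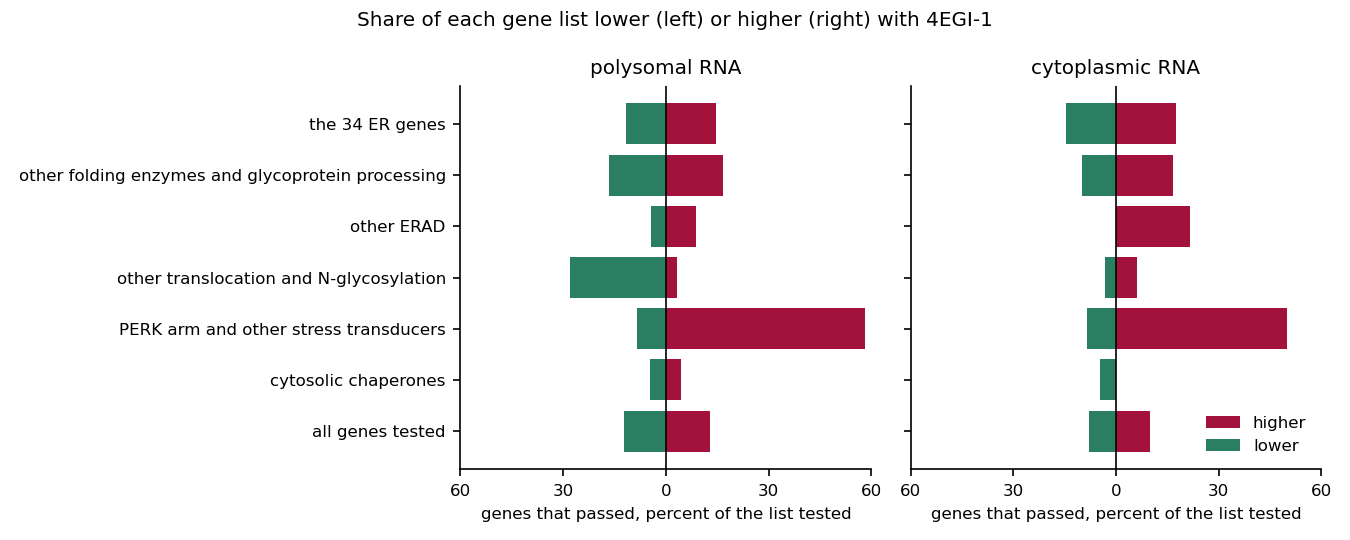
Share of the tested genes of each list (horizontal axis, percent) that were higher, to the right of 0, or lower, to the left, with 4EGI-1 in polysomal and in cytoplasmic RNA. The 34 ER genes lie near all genes tested in polysomal RNA. The list of the PERK arm and other stress transducers extends farthest to the right in both fractions. The translocation and N-glycosylation list extends farthest to the left in polysomal RNA.

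Set against the promoter sequences shown above, the 9 genes with an ER stress element held none that rose and 5 that fell in at least 1 of the fractions, namely Dnajc3, Pdia6, Creld2, Calr and Syvn1, against 16.4% of all genes tested that rose and 15.2% that fell in at least 1 of the fractions. Of these 5 calls, those of Creld2, Calr and Syvn1 were lost with the 6 cytoplasmic arrays alone (adjusted p = 0.0728, 0.109 and 0.139), and those of Pdia6, Creld2 and Syvn1 when single arrays were left out, as given above. In polysomal RNA none of the 9 rose and 2 fell (median -0.04), and in cytoplasmic RNA none rose and 3 fell (median -0.18). Of the 20 genes with a window but no such element, 7 rose and 2 fell in at least 1 of the fractions. In polysomal RNA 4 of the 20 rose and 2 fell (median 0.02), and in cytoplasmic RNA 5 rose and 1 fell (median -0.03). The 7 that rose were Herpud1, with the composite element and element II, Vcp, with the core, and Dnajb9, Edem1, Derl2, Ufd1 and Erp44, which held none of the 4 motifs. The 5 genes without a window are in neither set. Of them Atf6 rose in both fractions and Hyou1 fell in cytoplasmic RNA. The search counted exact matches alone, so the 20 genes may hold near matches of the element. They also include Herpud1 and Dnajb11, with element II, and Vcp, with the core. The split into 9 and 20 genes thus depends on how the element was defined. These counts describe the letters in the windows and were not tested.

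**Figure D5:**
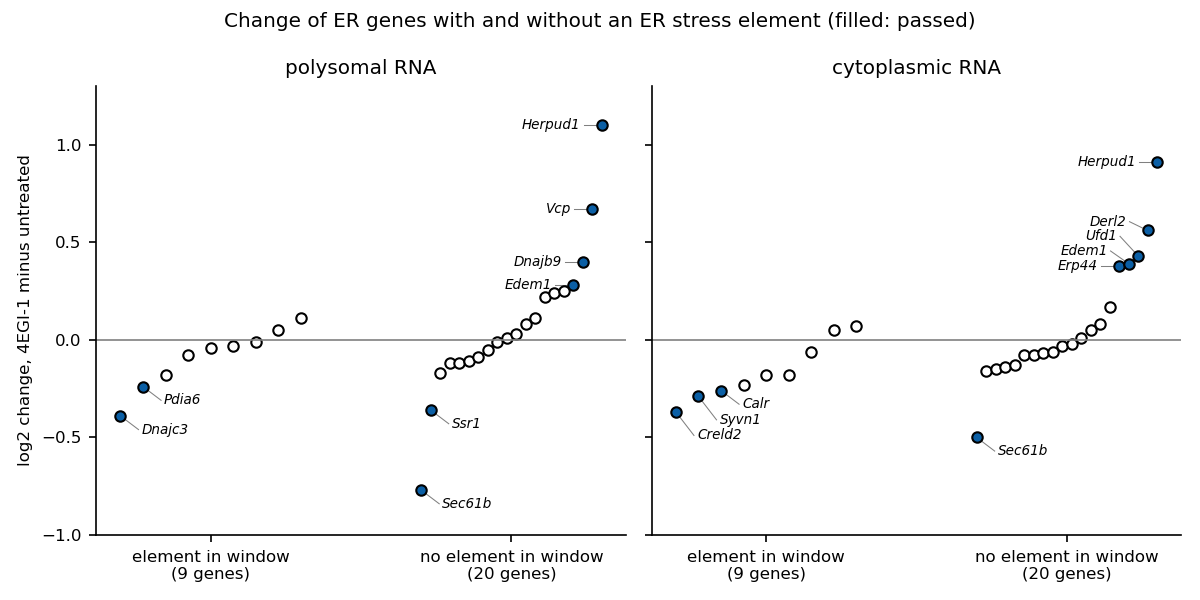
Log2 change with 4EGI-1 (vertical axis, 4EGI-1 minus untreated) in polysomal and cytoplasmic RNA of the 29 ER genes with a promoter window, split into 9 with and 20 without an ER stress element and ordered by their change within each set. Filled, named points passed the test. In the set with the element the named points all lie below 0.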

How the data were processed

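The authors' deposited table holds 1 log2 value per probe set and array, 34760 probe sets on 12 single-colour whole-transcript arrays, which the submitters' processing notes credit to RMA. The RMA version, the genome build and whether arrays were normalised jointly were not given in the sources used here. Of the probe sets, 21640 had 1 gene symbol, 1321 several and 11799 none. Each gene took its probe set with the highest mean, and a mean under log2 6.0, the 40th percentile over probe sets, removed a gene. A limma model (version 3.58.1, run in R 4.3.3) of the 4 group means used every array and gave the 5 comparisons. Benjamini-Hochberg adjustment covered the 13180 genes tested, and an adjusted p under 0.05 counted as passed. The cytoplasmic arrays varied more than the polysomal ones, and the fit pools their variances. The script was tested on simulated data that gave a gene the same spread in all groups, so the test did not check this pooling. Arrays have no read depth, and their number limits the precision.

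The genes and lists were chosen with earlier results of these data known. Named were those of the 34 genes that passed in a comparison, Hspa5, Xbp1 and Ern1 in any case, and from each other list up to 3 genes with the smallest p-values among those that passed. Array numbers were not taken to pair the samples. Of 18 same-numbered pairs of groups, 9 had deviations correlated above 0.1 (range -0.216 to 0.562). Cytoplasmic untreated and 4EGI-1 arrays correlated at 0.562 for number 2, 0.516 for number 3 and -0.216 for number 1, so some arrays may be paired. Alternatives were other normalizations, filters, probe-set rules, variance models, a replicate block and leaving out each array. Promoter windows are RefSeq's. No other gene coordinates are given, because the build of the probe annotation is not stated.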

Additional observations from a re-analysis of the deposited data

Results flagged for a closer look

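For 3 of the ER genes the effect of 4EGI-1 differed between polysomal and cytoplasmic RNA by the test of that difference, an interaction in the limma fit with adjustment over 13180 genes. Vcp had a polysomal minus cytoplasmic effect of 0.81 (adjusted p = 0.0057). It rose by 0.67 in polysomal RNA and changed by -0.13 in cytoplasmic RNA. Hyou1 had 0.61 (adjusted p = 0.0124), from 0.17 in polysomal and -0.44 in cytoplasmic RNA. Derl2 had -0.65 (adjusted p = 0.0289), from -0.09 in polysomal and 0.56 in cytoplasmic RNA, and was the least steady of the 3 when an array was left out. Cytoplasmic arrays spread more than polysomal ones, with a median gene SD of 0.121 and 0.133 in the 4EGI-1 and untreated groups, against 0.0761 and 0.0745 in the polysomal groups, and the part of this in the 3 results was not tested. Groups of 3 arrays are too small for an outlier test.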

How the results depend on the processing

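The count of the 34 genes past the test was 9 in polysomal RNA and 11 in cytoplasmic RNA. With a variance for each fraction it was 14 (9 higher, 5 lower) in polysomal RNA, and with the 6 cytoplasmic arrays alone 6 (5 higher, 1 lower) in cytoplasmic RNA. Leaving out an array gave 7 to 9 in polysomal RNA, 8 to 12 in cytoplasmic RNA, 2 to 3 for the difference between fractions, 1 to 5 for polysomal against cytoplasmic RNA in 4EGI-1 cells and 7 to 13 in untreated cells. In 4EGI-1 cells median centring gave 9, against 4 as reported. Over all genes, a variance for each fraction gave 5044 in polysomal and 1452 in cytoplasmic RNA and the 6 arrays of a fraction alone 5031 and 1100, against 3316 and 2352 as reported. Without the filter the difference between fractions gave 242 genes, against 385. Leaving out an array gave 2515 to 3726 genes in polysomal RNA, 1502 to 3093 in cytoplasmic RNA, 200 to 670 for the difference and, for polysomal against cytoplasmic RNA, 1046 to 2648 in 4EGI-1 and 2795 to 4175 in untreated cells. The causes were not tested, beyond the fewer arrays or genes that some of these alternatives use.

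The replicate block grouped arrays by number, which nothing states to mark a shared culture. It gave 9, 12 and 3 of the 34 genes for polysomal RNA, cytoplasmic RNA and their difference. For polysomal against cytoplasmic RNA it gave 4 and 10 in 4EGI-1 and untreated cells. It added the calls of Dnajc3 in cytoplasmic RNA (-0.23, adjusted p = 0.0422) and of Os9 between fractions in untreated cells (-0.28, adjusted p = 0.0243), and changed no other call among the genes named. Of 4421 values of 206 gene results under the alternatives, 4261 kept their side of the threshold, 115 lost the call, 45 gained it and 0 turned their sign as a called value. For genes outside the 34, these alternatives were added after seeing the data. The same holds for comparisons that a gene of the 34 did not pass, except for Hspa5, Xbp1, Ern1 and Atf6. The spread of 3 arrays sets the smallest change that could pass.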

Other observations

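Outside the 34 genes, 28 others held an ER stress element in a promoter window, and 8 of these were tested. In polysomal RNA 3 rose and none fell (median 0.14), against 13.0% and 12.1% of all genes. In cytoplasmic RNA 1 rose and 1 fell (median 0.07), against 10.1% and 7.79% of all genes. They are named here after their values were seen. Alg12, a mannosyltransferase of N-glycan assembly, rose by 0.66 (adjusted p = 0.000138) in polysomal and 0.69 (adjusted p = 0.000174) in cytoplasmic RNA. Pan2, a subunit of a poly(A) nuclease, rose by 0.67 (adjusted p = 8.03e-05) and Acacb, an acetyl-CoA carboxylase, by 0.33 (adjusted p = 0.012) in polysomal RNA. Ero1b, an oxidase related to Ero1a, changed by -0.30 in cytoplasmic RNA (adjusted p = 0.0433). The call of Acacb was lost without polysomal 4EGI-1 array 3 (0.057) or polysomal untreated array 3 (0.0549). That of Ero1b held only when the array left out was cytoplasmic 4EGI-1 array 3, cytoplasmic untreated array 2, polysomal 4EGI-1 array 1 or 2 or polysomal untreated array 2, and its adjusted p otherwise reached 0.184, without cytoplasmic 4EGI-1 array 2. It was also lost under median centring (0.0666), without the filter (0.0772), with a variance for each fraction (0.151) and with the 6 cytoplasmic arrays alone (0.121).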
